A study of Homo sapiens with 8 samples.

Results

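The regions described here are stretches of the genome where an m6A peak was called in both siControl samples and in only 1 of the 2 siMETTL3 samples. Overlapping peaks of the 4 samples, by 1 base or more, were joined, which gave 12221 regions, and 1174 of them (9.61%) met this rule. Of these, 271 had their siMETTL3 peak in replicate 1 and none in replicate 2 (the replicate 1 set), and 903 had it in replicate 2 and none in replicate 1 (the replicate 2 set). Both sets were chosen by whether a peak was listed in each sample, so their sizes and their values in these samples are descriptions and carry no test.

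N6-methyladenosine (m6A) is a methyl mark on internal adenosines of mRNA, placed largely by METTL3 together with its partner METTL14 and removed by FTO and ALKBH5. Proteins of the YTH family, such as YTHDF2, bind the mark and affect the decay, translation and localization of the transcript. In m6A-seq, fragmented mRNA is pulled down with an anti-m6A antibody, and places where the pulled-down fragments exceed the input are called as peaks. A peak therefore marks a stretch of transcript that was enriched by the antibody and covered by enough fragments to be called. It is taken as a sign of m6A.

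The cells were HepG2, a line derived from a human hepatocellular carcinoma, at passage 10 to 15. They received control siRNA (siControl) or siRNA against METTL3 (siMETTL3), with 2 replicates per group, and were harvested 48 h after transfection. The labels do not say whether the replicates came from separate cultures, a single siRNA against METTL3 was used, and the peak lists hold no measure of METTL3, so the knockdown in each replicate was not checked here. The lists held 6888 and 8162 peaks in siControl replicates 1 and 2, and 7138 and 8577 in siMETTL3 replicates 1 and 2. Library depth cannot be read from the lists, where tags (sequenced fragments) were counted only inside each sample's own peaks. All positions are on the human genome build hg19.

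Of the 5684 regions with a peak in both siControl samples, 3875 (68.2%) were called again in both siMETTL3 samples and 635 (11.2%) in neither. The 1174 regions kept in 1 siMETTL3 sample made up the remaining 20.7%. The replicate 1 set was 4.77% of the 5684 regions and the replicate 2 set was 15.9%, so the replicate 2 set was 3.33 times as large. The ratio depended on which peaks entered. When each list was cut to its 6888 most significant peaks, the sets held 387 and 688 regions, a ratio of 1.78. When only peaks of more than 100 tags were kept, a limit chosen after the values had been seen, they held 290 and 460, a ratio of 1.59. Under a listed false discovery rate (FDR) of at most 50% they held 71 and 666, a ratio of 9.38. That limit did not cut the lists alike, and left 2346 peaks in siMETTL3 replicate 1 and 3906 in siMETTL3 replicate 2. The replicate 2 set was the larger under each of these limits.

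The 2 sets differed in the siControl samples, which are the same 2 libraries for both sets and so place them on one scale. The regions kept in siMETTL3 replicate 1 were the more densely covered and the less enriched of the 2 sets. Those kept in siMETTL3 replicate 2 were more sparsely covered, and more enriched only when set against the replicate 1 set. The median of the mean siControl tags per kb of peak was 203.5 in the replicate 1 set (interquartile range 122.8 to 298.4) and 133.4 in the replicate 2 set (96.19 to 194.4). The median of the mean siControl fold enrichment, the ratio of pulled-down over background signal in a peak, ran the other way, with 4.135 (3.50 to 5.188) in the replicate 1 set and 4.79 (4.022 to 5.60) in the replicate 2 set. The interquartile ranges of the sets overlapped for both measures.

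**Figure D1:**
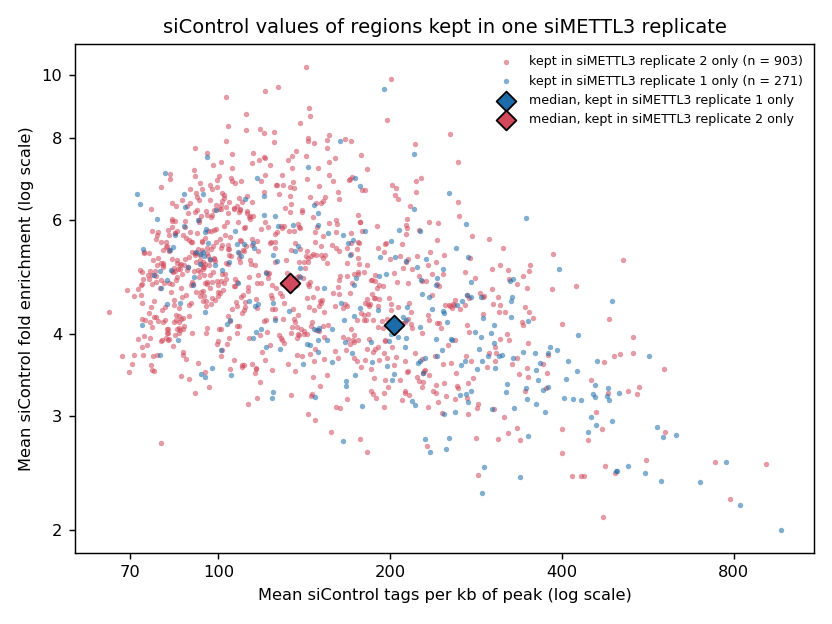
Each point is 1 region, at its mean siControl tags per kb of peak (x, log scale) and its mean siControl fold enrichment (y, log scale). Diamonds mark the set medians, at 203.5 tags per kb and 4.135 for the 271 regions kept in siMETTL3 replicate 1 only and at 133.4 tags per kb and 4.79 for the 903 kept in replicate 2 only, and the clouds overlap widely.

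The difference in coverage was seen in each siControl library alone. In siControl replicate 1, median tags per kb were 189.0 in the replicate 1 set and 120.0 in the replicate 2 set. In siControl replicate 2 they were 213.3 and 142.7. Both libraries thus gave the same order. On the log2 scale, the replicate 2 set lay −0.61 from the replicate 1 set, with an SD of 0.0533 between the 2 siControl libraries. That SD was taken over the same regions in both libraries. It does not measure spread between siMETTL3 samples or from the choice of peaks. Median fold enrichment was 4.14 against 4.70 in siControl replicate 1 and 4.13 against 4.71 in siControl replicate 2, again the same order in each. In the sets re-formed from peaks of more than 100 tags, the log2 differences were smaller, at −0.195 for tags per kb and 0.09 for fold enrichment.

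The sets also differed in tags per region. When only peaks of more than 100 tags were kept, the medians were 204.5 and 200.2 tags. That limit acts on the measure compared and re-forms both sets, so these medians do not belong to the same regions. With all peaks, the median region of the replicate 1 set held 197 tags in siControl replicate 1, 218 in siControl replicate 2 and 206 in siMETTL3 replicate 1. That of the replicate 2 set held 112, 136 and 100 tags in siControl replicates 1 and 2 and siMETTL3 replicate 2. At most 100 tags, as the mean of the siControl samples, were found in 63 of 271 regions (23.2%) of the replicate 1 set and in 330 of 903 (36.5%) of the replicate 2 set. At least 500 tags were found in 56 regions of each set, which is 20.7% of the first and 6.20% of the second. Over the regions called in all 4 samples, 11.7% had at most 100 tags and 20.6% at least 500, so the replicate 1 set was like them in the upper share and the replicate 2 set was below them. Over those called in no siMETTL3 sample, the shares were 43.6% and 8.03%.

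The merged regions were 1139 bases long at the median in the replicate 1 set (407 to 4933) and 1051 bases in the replicate 2 set (392 to 7260). Median siControl peak length was 1034 and 954 bases, and peaks of at least 2000 bases made up 16.6% and 7.31%. This order turned in the sets re-formed from peaks of more than 100 tags, where the medians were 1070 and 1168 bases. Every calling sample had a single peak in 271 of 271 regions of the replicate 1 set and in 884 of 903 (97.9%) of the replicate 2 set, against 97.1% over the regions called in all 4 samples.

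**Figure D2:**
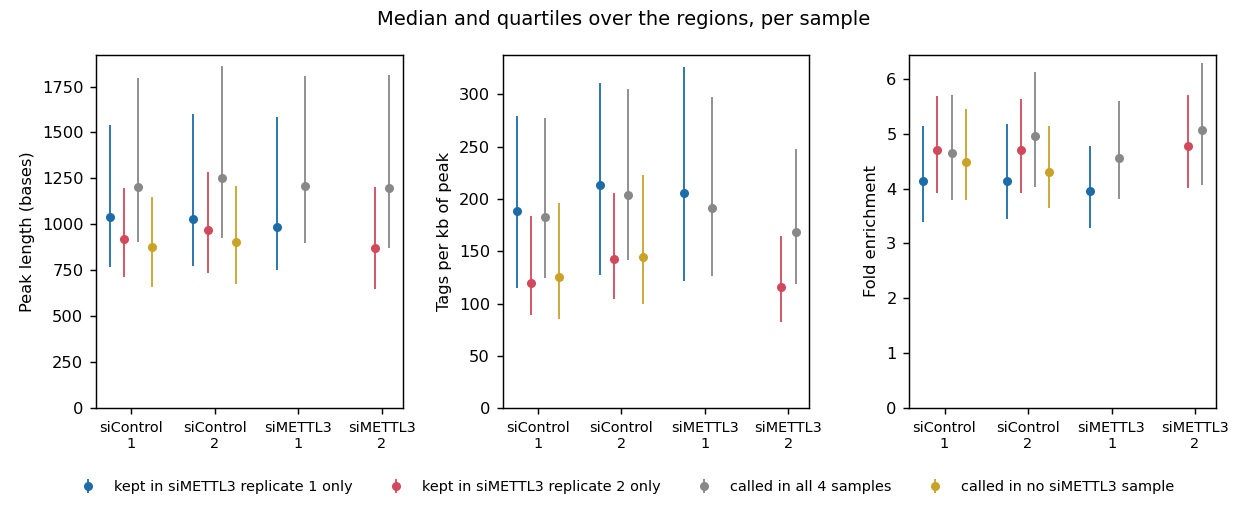
Points are medians and bars the quartiles over regions, for peak length in bases, tags per kb of peak and fold enrichment in each sample, with the 2 sets beside the 3875 regions called in all 4 samples and the 635 called in no siMETTL3 sample. In tags per kb, the replicate 1 set sits near the regions called in all 4 samples and the replicate 2 set near those called in no siMETTL3 sample.

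Beside the other regions of both siControl samples, each set was close at the median to the regions called everywhere in 1 measure. Median siControl tags per kb were 194.0 over the 3875 regions called in all 4 samples and 133.6 over the 635 called in no siMETTL3 sample. The replicate 1 set (203.5) was close to the former and the replicate 2 set (133.4) close to the latter. For fold enrichment the medians were 4.855 and 4.50 in the same order. Without regard to coverage, the replicate 2 set (4.79) was close to the regions called everywhere. The replicate 1 set (4.135) lay below all others. Peaks in both sets were shorter than in the regions called in all 4 samples, whose median siControl length was 1232 bases, and longer than in those called in no siMETTL3 sample, with 886 bases.

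The medians of both measures divided the 5684 regions into 4 classes, at 175.3 tags per kb and a fold enrichment of 4.75 in siControl. The largest class of the replicate 1 set was that with many tags and low enrichment, which held 125 of its 271 regions (46.1%), and 35.1% of the regions called in all 4 samples. The largest class of the replicate 2 set was that with few tags and high enrichment, which held 383 of its 903 (42.4%), and 31.0% of the regions called in all 4 samples. The class with few tags and low enrichment held 26.0% of the replicate 2 set, 18.1% of the replicate 1 set and 12.6% of the regions called in all 4 samples. The replicate 2 set made up 23.9% of this class and 20.6% of the class with few tags and high enrichment. Regions above both medians were the least represented in each set, with 10.3% and 9.52%, against 21.2% of the regions called in all 4 samples.

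The share of the replicate 2 set changed with siControl coverage, and that of the replicate 1 set changed little. The 5684 regions were divided into quintiles of siControl tags per kb. In the lowest quintile (64.2 to 109.8), 336 of 1137 regions (29.6%) were kept in siMETTL3 replicate 2 only and 53 (4.66%) in siMETTL3 replicate 1 only. In the highest quintile (299.2 to 1188), 77 regions (6.77%) and 68 (5.98%) were kept in this way. The replicate 2 set therefore thinned out in every step from the lowest to the highest quintile, while the replicate 1 set held between 3.69% and 5.98% of each. The regions called in no siMETTL3 sample, which also lack a peak in replicate 2, made up 20.2% of the lowest and 7.74% of the highest quintile. At like coverage the replicate 1 set still had the lower median enrichment in 4 of 5 quintiles. Median siControl fold enrichment in the replicate 1 and the replicate 2 set was 4.705 and 5.13 in the second quintile, 4.265 and 4.615 in the third, 4.04 and 4.255 in the fourth, and 3.308 and 3.685 in the highest. In the lowest quintile the order was the opposite, with 5.23 and 5.04. Both sets lay below the regions called in all 4 samples in every quintile. The medians of those regions were 5.328, 5.65, 5.23, 4.668 and 3.85, from the lowest to the highest quintile. Over quintiles of siControl fold enrichment, the replicate 2 set held between 13.9% (the highest quintile) and 18.7% (the third) of each. The replicate 1 set held 8.44% of the lowest and 2.20% of the highest.

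**Figure D3:**
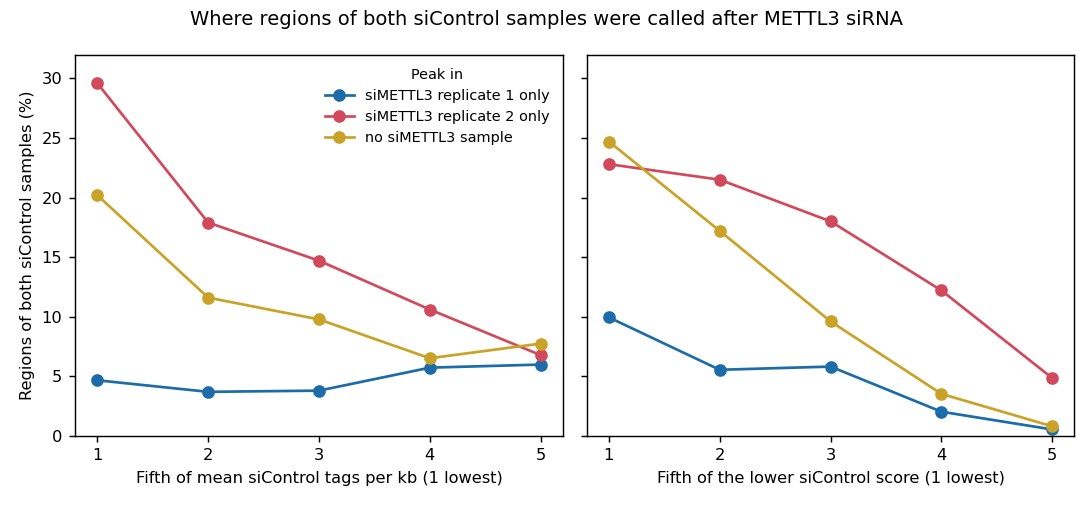
The y axis is the percentage of the regions of both siControl samples called in 1 or no siMETTL3 sample, by quintile of mean siControl tags per kb (left) and of the lower of both siControl scores (right), with about 1137 regions in each quintile. Over tags per kb, the share kept in siMETTL3 replicate 2 only goes from 29.6% to 6.77% and that kept in replicate 1 only stays between 3.69% and 5.98%, and over the score all 3 shares are lower in the highest than in the lowest quintile.

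Both siMETTL3 lists also differed from each other in make-up. Peaks of at most 100 tags numbered 1562 (21.9%) in siMETTL3 replicate 1 and 3122 (36.4%) in siMETTL3 replicate 2, against 26.9% and 25.8% in the siControl replicates. Tags per kb over all peaks were 249 in siMETTL3 replicate 1, the highest of the 4 samples, and 186 in siMETTL3 replicate 2, the lowest. Among peaks of at most 100 tags, median fold enrichment was 4.8 in siMETTL3 replicate 1 and 5.27 in siMETTL3 replicate 2. The part of these list properties in the split of the regions was not tested.

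The score of a peak, the −log10 of the p-value times 10, starts at 50 in these lists, and many of the regions were near that limit. The median of the lower siControl score was 77.63 in the replicate 1 set and 88.29 in the replicate 2 set, against 150.9 over the regions called in all 4 samples and 70.79 over those called in no siMETTL3 sample. It was under 60 in 66 regions (24.4%) of the replicate 1 set and 159 (17.6%) of the replicate 2 set, against 7.56% of the regions called in all 4 samples and 27.2% of those called in no siMETTL3 sample. It was at least 200 in 12 (4.43%) and 89 (9.86%), against 35.9% and 3.15%. Strong siControl regions were thus scarcer in both sets than among the regions called in all 4 samples. In the highest quintile of the lower siControl score (244.3 and above), 55 of 1137 regions belonged to the replicate 2 set, 6 to the replicate 1 set and 9 to those called in no siMETTL3 sample.

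Region by region, the score of the single siMETTL3 peak differed from the mean log2 siControl score by a median of −0.0431 in the replicate 1 set. In the replicate 2 set it differed by −0.2266. Over the regions called in all 4 samples, the differences were −0.0924 for siMETTL3 replicate 1 and −0.0515 for siMETTL3 replicate 2. The median score of the siMETTL3 sample was below both siControl medians in each set. Median score was 83.41 in siControl replicate 1, 104.7 in siControl replicate 2 and 82.4 in siMETTL3 replicate 1 for the replicate 1 set. For the replicate 2 set it was 103.9 and 115.2 in the siControl replicates and 93.83 in siMETTL3 replicate 2. Scores under 60 in the remaining siMETTL3 peak were found in 55 of 271 (20.3%) and 115 of 903 (12.7%) regions. The listed FDR was high throughout. Its median in siControl replicate 1, siControl replicate 2 and the remaining siMETTL3 sample was 91.71%, 70.85% and 88.78% in the replicate 1 set and 73.04%, 64.0% and 61.99% in the replicate 2 set. In the replicate 1 set, 2 peaks of siControl replicate 1 and 1 peak of siControl replicate 2 had an FDR no higher than 5%. In the replicate 2 set, 8 and 5 peaks did, and 0 siMETTL3 peaks of either set did. Over the regions called in all 4 samples, the shares were 4.83% and 7.07% in the siControl replicates and 0.155% in each siMETTL3 replicate, so such peaks were rare in siMETTL3 in general.

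Where the peak was kept, its enrichment was close to that in siControl. Regions whose enrichment fell far enough to lose the call are left out by the rule, so the sets could not show such falls. In the replicate 1 set, median fold enrichment was 3.95 in siMETTL3 replicate 1, and the median log2 difference from the mean of the siControl samples was −0.06 (interquartile range −0.24 to 0.10). The same sample differed by a median of −0.05 over the regions called in all 4 samples. Enrichment in siMETTL3 replicate 1 was below both siControl values in 129 of 271 regions (47.6%), where 43.3% of the regions called in all 4 samples were, and above both in 75 (27.7%), where 29.2% were. These shares were near the background.

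In the replicate 2 set, median fold enrichment was 4.78 in siMETTL3 replicate 2, with a median log2 difference of 0.02 from siControl (−0.22 to 0.24), and of 0.06 over the regions called in all 4 samples. It was below both siControl values in 313 of 903 regions (34.7%, background 29.3%) and above both in 353 (39.1%, background 44.4%). The score moved further from the background than the enrichment. It was below both siControl values in 414 regions (45.8%), against a background of 37.7%, and above both in 221 (24.5%), against 31.2%. In the replicate 1 set the corresponding shares were 40.6% (background 42.3%) and 34.3% (background 32.5%).

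Large changes of enrichment in the kept peak were rare. The rule asks for a called siMETTL3 peak, as do the regions called in all 4 samples. Large falls could thus be removed in advance, and their absence is not read as stable enrichment. None of the 271 and none of the 903 regions had a fold enrichment at least 2-fold below siControl in the remaining siMETTL3 sample, where 16 (0.413%) and 9 (0.232%) of the 3875 regions called in all 4 samples did. A fold enrichment at least 2-fold above siControl was found in 0 and 2 regions (background 0.103% and 0.465%). Tags in the kept peak, not scaled for library size, were below both siControl values in 67.8% of the replicate 2 set (background 67.0%) and above both in 10.4% (background 12.6%), so siMETTL3 replicate 2 had fewer tags in most regions of either kind. In the replicate 1 set they were above both in 48.7% (background 40.5%) and below both in 33.2% (background 38.5%).

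The summit, the position of highest signal in a peak, was placed closer together in the replicate 1 set than in the replicate 2 set. In the replicate 1 set the median distance between summits was 13 bases for the siControl samples and 14 bases from siMETTL3 replicate 1 to either of them. In the replicate 2 set it was 19 bases for the siControl samples, and 48 and 49 bases from siMETTL3 replicate 2 to siControl replicates 1 and 2. The regions called in all 4 samples showed the same wider distance for siMETTL3 replicate 2, with 42 and 43 bases, and 19 and 18 bases for siMETTL3 replicate 1. Summits of siMETTL3 replicate 2 lay within 100 bases of those of siControl replicate 1 in 79.8% of the replicate 2 set and in 79.8% of the regions called in all 4 samples. Against siControl replicate 2 these shares were 77.7% and 80.1%.

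The siMETTL3 sample without a peak in a region seldom had one close by. A peak of that sample lay within 1 kb in 18 regions (6.64%) of the replicate 1 set and in 40 (4.43%) of the replicate 2 set. Over the regions called in no siMETTL3 sample, these shares were 6.93% for siMETTL3 replicate 2 and 3.78% for siMETTL3 replicate 1, near those of the sets that lack the same sample. Median distances were 25860 and 46980 bases. For the regions called in no siMETTL3 sample, the nearest peak was at a median of 30190 bases in siMETTL3 replicate 2 and 58100 bases in siMETTL3 replicate 1, whose list is the shorter. A second region of both siControl samples was found within 10 kb of 20.3% of the replicate 1 set and 25.5% of the replicate 2 set, against 23.9% of the regions called in all 4 samples.

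The regions were spread over all chromosomes, with the most on chromosomes 1 (115 regions), 2 (99) and 12 (77). Of the regions of both siControl samples on a chromosome, the share kept in 1 siMETTL3 sample ranged from 12.7% on chromosome 22 (16 of 126) to 27.7% on chromosome 12 (77 of 278), leaving aside chromosome Y with 10 such regions. It was 25.4% on chromosome 2, 24.8% on X and 24.4% on chromosome 4, and was low on chromosomes 16 (15.4%) and 19 (15.8%). The replicate 2 set was the larger on every chromosome but 22, which held 9 regions of the replicate 1 set and 7 of the replicate 2 set. It made up 61.0% of the 59 regions on chromosome 17 and 64.7% of the 34 on chromosome 20. On chromosome 15 it made up 89.2% of 37, and on chromosome 13 88.5% of 26. Over all chromosomes, 20.7% of the regions of both siControl samples were kept in 1 siMETTL3 sample. The replicate 2 set was 903 of these 1174. Per 1000 protein-coding genes of the RefSeq annotation of GRCh38.p14, used here only to count genes, the regions of both sets numbered between 35.4 on chromosome 11 and 78.9 on chromosome 2.

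**Figure D4:**
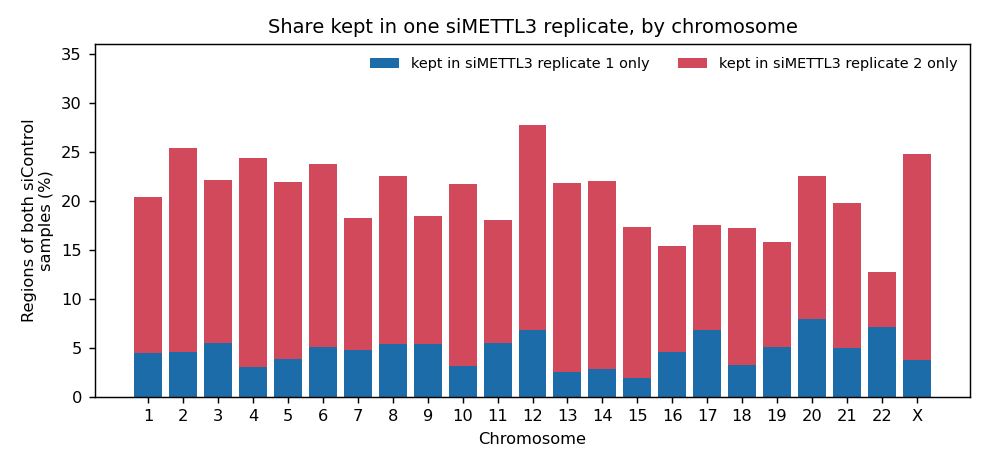
Stacked bars give the percentage of the regions of both siControl samples on each chromosome that were kept in siMETTL3 replicate 1 only and in siMETTL3 replicate 2 only; chromosome Y, with 10 regions, is not drawn. The whole bar runs from 12.7% on chromosome 22 to 27.7% on chromosome 12.

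The strongest regions of each set, ranked by the lower of both siControl scores, show what a missing call can look like. The ranking favours high siControl values, so a lower siMETTL3 value in these regions is not read as a fall. In the replicate 1 set the first was chr16:88598260-88602061, with a fold enrichment of 4.96 and 5.13 in siControl replicates 1 and 2 and 5.05 in siMETTL3 replicate 1. It held 1427, 1547 and 1746 tags and had scores of 878.69, 981.12 and 1738.67 in the same order. siMETTL3 replicate 2 had no peak closer than 34317 bases to it, although siMETTL3 replicate 1 gave it the highest score in the set. The lists hold called peaks only, so a missing peak does not show how much signal the sample had there, and why this region has none listed was not tested.

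The second was chr1:151258390-151261422, with 1004, 1124 and 1315 tags and a fold enrichment of 3.62, 3.86 and 3.75. Both of these regions were long, at 3802 and 3033 bases, and siMETTL3 replicate 1 scored them above both siControl samples. The third, chr13:103491559-103492657, held 160 and 173 tags in siControl at a fold enrichment of 7.67 and 8.19, and 130 tags at 4.01 in siMETTL3 replicate 1. The fourth, chr5:138727757-138731241, had a fold enrichment of 5.25 and 4.28 in siControl and 4.15 in siMETTL3 replicate 1, with 228, 310 and 271 tags. The fifth, chr20:39709647-39710079, was only 433 bases long and had a fold enrichment of 9.23 and 9.80 in siControl and 5.40 in siMETTL3 replicate 1. In the last 3, siMETTL3 replicate 1 was the lowest of the samples in enrichment.

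In the replicate 2 set the first region was chr2:170492458-170494456, with a fold enrichment of 5.77 and 4.63 in siControl replicates 1 and 2 and 3.57 in siMETTL3 replicate 2. Its scores were 1137.7, 814.96 and 308.81, and its tags 849, 1075 and 840. The nearest peak of siMETTL3 replicate 1 was 97140 bases away. The second, chr19:36726411-36729707, had a fold enrichment of 5.36 and 4.36 in siControl and 3.43 in siMETTL3 replicate 2, with 1007, 1117 and 661 tags. The third, chr3:37364931-37369512, had 4.62 and 3.72 in siControl and 3.07 in siMETTL3 replicate 2, with scores of 776.51, 741.58 and 163.88. In all 3 the siMETTL3 value lay below both siControl values in enrichment and in score, although each region was covered by more than 500 tags in every calling sample.

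The fourth, chr15:55651478-55653294, had a fold enrichment of 6.0 and 4.62 in siControl and 5.35 in siMETTL3 replicate 2, which lies between them, while its tags (600, 759 and 318) and score (692.5, 711.65 and 298.19) were lowest in siMETTL3 replicate 2. The fifth, chr1:3404455-3407324, held 394 and 417 tags in 1 siControl peak each and 119 tags in 2 shorter peaks of siMETTL3 replicate 2. Its fold enrichment was 8.0, 7.84 and 6.31.

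The longest regions had a fold enrichment of at most 4.15 in every calling sample. The longest of the replicate 1 set was chr10:104180221-104185153 (4933 bases), with 1129, 1190 and 1504 tags and a fold enrichment of 4.12, 3.96 and 4.15 in siControl replicates 1 and 2 and siMETTL3 replicate 1. The next, chr14:21989143-21994029 (4887 bases), had 590 and 675 tags in siControl and 1212 in siMETTL3 replicate 1, the highest of the 3. The longest of the replicate 2 set was chr10:102742579-102749838 (7260 bases), where siControl peaks of 7173 and 7260 bases faced a siMETTL3 replicate 2 peak of 3772 bases. Here the enrichment was alike (3.33, 3.17 and 3.6) while the peak was shorter. The next, chr10:129900693-129907848, had peaks of 7130, 7150 and 7152 bases, and siMETTL3 replicate 1 had a peak 541 bases outside it.

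The highest siControl tags per kb of the replicate 1 set were at chr2:54857843-54858947, with 958.3, 976.5 and 921.1 tags per kb and a fold enrichment of only 2.01, 2.00 and 2.18. At chr6:7582527-7586854 they were 815.1, 826.9 and 781.6 with an enrichment of 2.26, 2.11 and 2.13, and siMETTL3 replicate 2 had a peak 600 bases away. In the replicate 2 set, chr14:39649558-39651607 had 826.7 and 993.1 tags per kb in siControl and 748.4 in siMETTL3 replicate 2, with an enrichment of 2.82, 2.23 and 2.73. These values show that a call could be missing where coverage was among the highest of the set and enrichment among the lowest. At chr17:47481264-47482765 they were 748.2, 826.4 and 590.6 tags per kb, with an enrichment of 2.32, 2.15 and 2.15.

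Regions just inside and just outside the rule had siMETTL3 scores close to the limit of 50. The lowest siMETTL3 scores inside the replicate 1 set were 50.01 at chr6:31797238-31798145, 50.09 at chr2:131862726-131863517 and 50.32 at chr22:18111223-18111670, where siControl scores were between 53.04 and 109.67. Just outside, among the regions called in all 4 samples, siMETTL3 replicate 2 had its lowest scores of 50.06 at chr17:17968223-17969166, 50.11 at chr12:123982633-123983708 and 50.36 at chr14:31597646-31598851, so that a slightly higher limit would have placed these in the replicate 1 set. For the replicate 2 set the lowest siMETTL3 scores inside were 50.09 at chr12:123687101-123687935, 50.10 at chr5:122880968-122881719 and 50.11 at chr12:49919580-49920952. The second of these was strong in siControl, with scores of 199.11 and 346.06 and an enrichment of 6.08 and 7.72, against 4.6 from 36 tags in siMETTL3 replicate 2. Just outside the replicate 2 set, siMETTL3 replicate 1 had scores of 50.04 at chr8:21916319-21917308, 50.07 at chr5:138889585-138893028 and 50.10 at chr10:27458734-27459889.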

How the data were processed

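m6A-seq was carried out on HepG2 cells treated with control or METTL3 siRNA, with 2 replicates each. The peak lists belong to the 4 pulled-down samples, each of which has an input. Per the labels, the submitters' processing notes name CASAVA 1.8.2, MACS 1.4.2 and the build hg19. The aligner and the calling parameters were not given in the sources used here. Peaks were called by the authors in each sample. They deposited, for each peak, the tag count (whole numbers, not scaled for library size), a score (the −log10 of the p-value times 10), a linear ratio of enrichment (fold), and the FDR in percent. Groups and replicate numbers came from the sample titles.

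Peaks were read as 1-based intervals, and those sharing at least 1 base were merged. In a region, a sample's tags and lengths were summed over its peaks and its highest enrichment and score were taken. No count model and no test were used, because counts belong to different intervals, regions are not replicates, and the rule used the calls of all samples. The members, the limits and the lists were chosen with earlier results of these data known. Merging was tested on simulated lists and returned 8 of 8 known values. Python 3.11.15, numpy 2.4.6, pandas 2.3.3 and matplotlib 3.10.9 were used.

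Regions were named by position, by a rule taking, per set, the 5 with the highest lower siControl score, the 3 nearest the limit on each side, the 2 longest and the 2 with the highest siControl tags per kb. No hg19 genome or annotation was used here, so no region is assigned to a gene, no sequence is shown, and the planned gene lists were not looked up. The alternatives changed the score or FDR limit, the overlap, the merging, the number of peaks, the enrichment measure, the scaling or the siControl replicates. Depth is unknown, so no counting interval is given.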

Additional observations from a re-analysis of the deposited data

How the results depend on the processing

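Values are counts of regions (main 1174, with 271 and 903 in the replicate 1 and replicate 2 sets) and log2 ratios of set medians in siControl (replicate 2 set over replicate 1 set: −0.116 for peak length, −0.709 for tags, −0.609 for tags per kb and 0.212 for fold enrichment). A score of at least 100, chosen after seeing the data, gave 775 regions, 592 in the replicate 2 set, and ratios of −0.286 for length and 0.284 for enrichment. Peaks of more than 100 tags, also chosen then, gave 750 and 460 regions. The sets re-formed from them had ratios of 0.126 for length (reversed, and the cause was not tested), −0.03 for tags, −0.195 for tags per kb and 0.09 for enrichment. An FDR of at most 50% gave 737 regions with 71 in the replicate 1 set, and the cause was not tested. The same number of peaks per sample gave ratios of −0.608 for tags and 0.167 for enrichment. Enrichment also gave 0.243 at a score of at least 70, 0.218 under 50% coverage and 0.205 after scaling.

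With 1 siControl replicate left out, when a peak is asked of the other only, the counts were 1449 to 2027 regions, 367 to 601 in the replicate 1 set and 1082 to 1426 in the replicate 2 set. The ratios were not taken over these larger sets. They were taken over the unchanged main sets, with the values of 1 siControl replicate at a time. They were −0.177 to −0.082 for length, −0.815 to −0.681 for tags, −0.655 to −0.58 for tags per kb and 0.183 to 0.19 for enrichment. Leaving out a siMETTL3 replicate was not run, since the rule needs both. No paired analysis was possible because the results come from no test and each set holds peaks of a single siMETTL3 sample. The unknown depth limits every comparison of peak calls.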

Other observations

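The mirror-image regions, with a peak in both siMETTL3 samples and in 1 siControl sample, were counted as well. There were 209 with their siControl peak in replicate 1 and 768 with it in replicate 2, the siControl sample with the longer list. Their shares of the regions with a peak in both siMETTL3 samples were not taken. The counts therefore cannot be set beside the 4.77% and 15.9% of the main sets. The part of list length in these counts was not tested. Median siMETTL3 tags per kb were 174.3 in the former and 144.6 in the latter, and median siMETTL3 fold enrichment was 4.355 and 4.707.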
